A study of Homo sapiens with 18 samples.

Results

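Chemokines are small secreted proteins that guide leukocytes along concentration gradients, and chemokine receptors are the G protein-coupled receptors that read them. They are described here across 18 RNA-seq libraries of THP-1 cells, an established human monocytic leukaemia line. The genes were chosen by symbol, as CCL, CXCL, XCL or CX3CL followed by digits for ligands and CCR, CXCR, XCR, CX3CR or ACKR followed by digits for receptors, with an optional L suffix and without pseudogenes. This gave 65 of 58051 genes in the count files, 43 of them ligands and 22 receptors. The ligands comprised 26 CCL, 14 CXCL, 2 XCL and 1 CX3CL gene, and the receptors 10 CCR, 6 CXCR, 4 ACKR, 1 XCR and 1 CX3CR gene.

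The families are named after the spacing of the first cysteines of the ligand. Inflammatory CC ligands such as CCL2, CCL3, CCL4 and CCL5 draw monocytes and T cells, CXC ligands with an ELR motif such as CXCL1 and CXCL8 draw neutrophils, and CXCL9, CXCL10 and CXCL11 are induced by interferon and bind CXCR3. Conventional receptors signal through Gi proteins, whereas the atypical ACKR receptors bind and clear ligands without G protein signalling. Macrophages are a main source of both groups of inflammatory ligands, and CCL17, CCL18, CCL22, CCL24 and CCL26 are known as ligands made after IL-4, the cytokine of alternative macrophage activation, which signals through STAT6.

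All cells were transduced with a retroviral MSCV vector that carries GFP, sorted for GFP and treated with the phorbol ester PMA at 5 ng/ml for 48 h, which gives THP-1 cells macrophage-like features. NIC1 cells carried a MYC-tagged NOTCH1 intracellular domain (the active part of the receptor), DNMAML cells carried DNMAML, a dominant-negative Mastermind-like protein that blocks the Notch transcription complex, and IRES cells carried the vector without either. Each construct was studied after 3 h of IL-4 at 20 ng/ml and without stimulation, giving 6 groups of 3 libraries: NIC1 with IL-4, NIC1 unstimulated, DNMAML with IL-4, DNMAML unstimulated, IRES with IL-4 and IRES unstimulated. The libraries came from experiments 1, 2 and 3, each present once in every group, and all values below are given in that order. The constructs are overexpressed from a viral promoter in 1 cell line. The labels do not tell if the experiments were separate transductions or cultures, so the p-values reflect how far these libraries scatter, which could be technical scatter alone. Levels are given as CPM, read counts scaled by the total of the library.

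The total of reads assigned to genes ran from 12410668 to 15099788 per library. IRES unstimulated replicate 3 and DNMAML with IL-4 replicate 3 stood apart, with 23179 and 25322 genes having at least 1 count against 21067 to 21557 in the other 16 libraries, and results that rest on this pair are given with and without it. The labels were checked on genes outside the family. CISH, an early STAT6 target, averaged 110 ± 1.19 CPM in NIC1 with IL-4 and 2.25 ± 0.290 CPM in NIC1 unstimulated (SD, n = 3 each). HES4, a Notch target, averaged 15.1 ± 3.24 CPM in NIC1 unstimulated and 2.65 ± 0.305 CPM in DNMAML unstimulated (log2 difference 2.50 ± 0.278, edgeR adjusted p = 0.000327). NOTCH1 reads, which can come from the construct, averaged 287 ± 55.3 CPM in NIC1 unstimulated and 188 ± 40.5 CPM in IRES unstimulated, and MAML1 reads 131 ± 8.08 CPM in DNMAML unstimulated and 88.9 ± 9.32 CPM in IRES unstimulated (adjusted p = 0.377 and 0.258, blocked on experiment 1.06e-06 and 0.00250). Of 10 markers of monocytes and macrophages, 8 had a mean of at least 1 CPM, with a summed level of 734 to 1165 CPM per library. T cell markers reached that mean in 2 of 6 cases (summed level 74.7 to 115 CPM), B cell markers in 3 of 5 (8.72 to 20.6 CPM), neutrophil markers in 1 of 5 (15.6 to 49.2 CPM), dendritic cell markers in 4 of 5 (13.6 to 41.5 CPM), fibroblast and epithelial markers in 4 of 6 (91.9 to 182 CPM) and megakaryocyte markers in 0 of 5 (0.602 to 2.68 CPM), where PF4 was at 0 in all 18 libraries.

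A gene was called detected at a mean of 1 CPM or more in at least 1 group. By that rule 31 members were detected, 22 ligands and 9 receptors, and 25 of them in all 6 groups. The number detected per group was 27 in NIC1 with IL-4, 28 in NIC1 unstimulated, 27 in DNMAML with IL-4, 29 in DNMAML unstimulated, 28 in IRES with IL-4 and 26 in IRES unstimulated. A filter on low counts left 33 members for testing, the 31 detected ones and CCR2 and CXCL6, which stayed below 1 CPM in every group. The other 32 members were not tested in the fits with that filter.

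Per kilobase of annotated exons, CCL5 (RANTES, a T cell and monocyte attractant) was the most abundant member, with a mean of 389 CPM per kilobase over the 18 libraries. CCL1, a ligand of CCR8, was next at 68.5 CPM per kilobase, then CCL3L3 at 43.5, CCL3 at 33.6, the fractalkine receptor CX3CR1 at 28.9, the CCR2 ligand CCL2 at 25.9 and the CCR4 ligand CCL22 at 22.3 CPM per kilobase. The libraries of CCL1 spread so widely that its range overlapped those of CCL3L3, CCL3, CX3CR1, CCL2 and CCL22. Below them came CXCR4 (11.6), CCL4L2 (10.6), CXCR3 (9.49), CXCL10 (8.77), CCR1 (8.72), CXCL8 (7.87), CCL20 (7.45), CXCL13 (5.13) and CCR7 (5.01 CPM per kilobase). At the low end stood CXCL11 at 0.612, CCL28 at 0.475, ACKR3 at 0.388, CX3CL1 at 0.332 and CXCL3 at 0.300 CPM per kilobase. CCL5 alone made up between 41.7% and 55.5% of the summed CPM of all 65 members in each library.

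**Figure D1:**
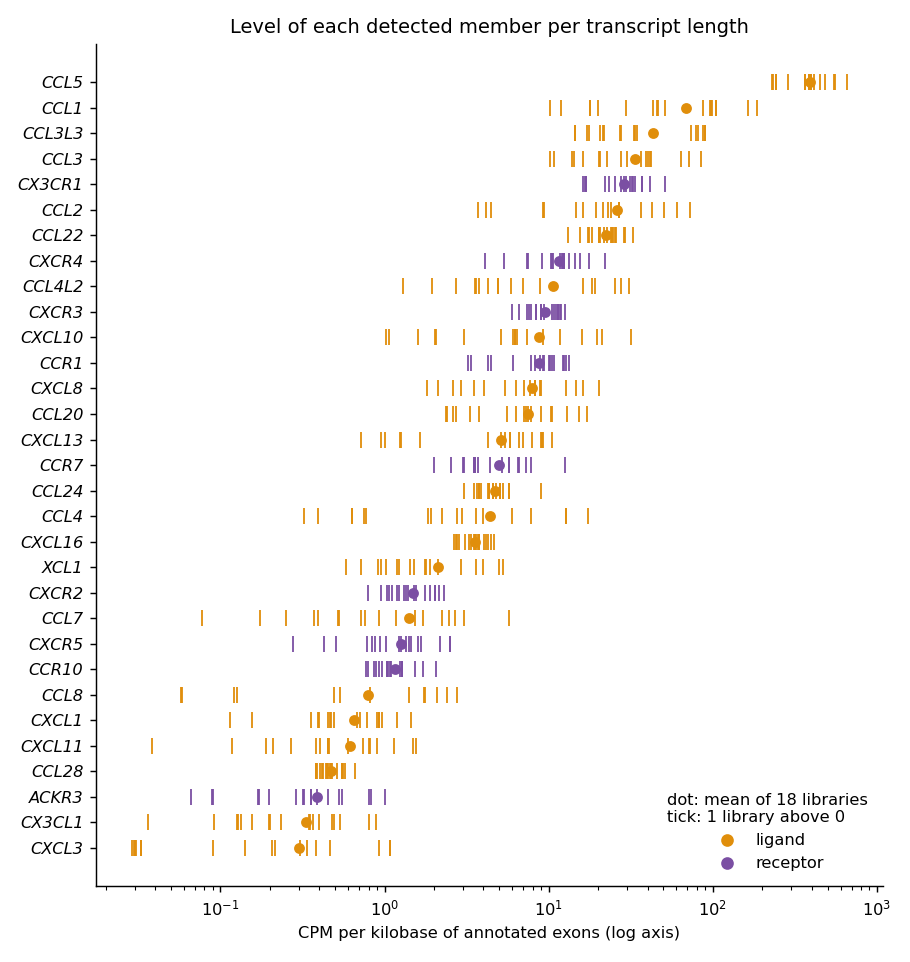
Level of the 31 detected members in CPM per kilobase of annotated exons on a log axis, with a tick for each library above 0 and a dot for the mean of 18 libraries, ligands in orange and receptors in purple. CCL5 stands highest at a mean of 389 and CXCL3 lowest at 0.300, and the ticks of neighbouring genes overlap along most of the order.

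Among the receptors, CX3CR1 was the most abundant, at 98.7 ± 34.3 CPM in NIC1 with IL-4, 93.3 ± 28.97 CPM in NIC1 unstimulated, 127 ± 53.2 CPM in DNMAML with IL-4, 96.9 ± 36.7 CPM in DNMAML unstimulated, 118 ± 35.6 CPM in IRES with IL-4 and 99.3 ± 37.2 CPM in IRES unstimulated (SD, n = 3 each). CXCR4, the CXCL12 receptor, had group means of 19.3 to 34.7 CPM, CCR1, a receptor of CCL3 and CCL5, 18.5 to 28.99 CPM, CXCR3 12.4 to 21.8 CPM, CCR7, the receptor that guides cells to lymph nodes, 8.79 to 20.0 CPM, CXCR5 3.23 to 8.52 CPM and CXCR2 3.87 to 5.65 CPM. CCR10 (2.44 to 3.56 CPM) and the scavenging receptor ACKR3 (0.326 to 1.49 CPM) were the lowest of the 9. Reads of CXCR5 and CCR10 cannot be told apart from those of the genes they overlap on the other strand, BCL9L (up to 53.9 CPM in a library) and CNTNAP1 (up to 12.9 CPM), since the strand setting of the counting is not given.

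CCR2, the receptor of classical monocytes, reached a highest group mean of 0.868 CPM, and CXCR1, a CXCL8 receptor, had 3 counts in all 18 libraries. CCR3 (0.567 CPM) and CCR9 (0.597 CPM) had the next highest group means among receptors not detected, CCR9 overlapping LZTFL1, which had up to 47.2 CPM, and CCR4, CCR6, CCR8, CXCR6, XCR1, ACKR1, ACKR2 and ACKR4 stayed at or below 0.380 CPM. Of the ligands not detected, CXCL6 reached 0.824 CPM, CCL13 0.536 CPM and the interferon-induced CXCL9 0.465 CPM, while CXCL2, CXCL5, CXCL12, CXCL14, CXCL17, CCL18, CCL19, CCL21, CCL23, CCL25, CCL17, CCL26 and XCL2 stayed at or below 0.267 CPM. CCL11, CCL14, CCL15, CCL16, CCL27 and CXCR6 had 0 counts in all 18 libraries, which allows up to 3 counts over them. Among the other detected ligands, group means ran from 9.15 to 10.5 CPM for CXCL16, a membrane-bound ligand that overlaps MED11 (up to 8.08 CPM), from 5.72 to 8.82 CPM for CXCL13, from 2.47 to 3.78 CPM for CCL24, from 1.91 to 2.35 CPM for the mucosal ligand CCL28 and from 0.786 to 1.76 CPM for CXCL11. CCL3 and CCL3L3, CCL4 and CCL4L2, and XCL1 and XCL2 are near-identical copies, so their separate levels are uncertain. CXCL1, CXCL2 and CXCL3 are similar but less alike, and some of their reads may also be shared.

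Of the 65 genes, 19 lie on chromosome 17, 12 of them detected, and 10 on chromosome 4, 6 of them detected. On chromosome 17 (GRCh38, GENCODE 29) CCL2 (34255218 to 34257203), CCL7 (34270221 to 34272242) and CCL8 (34319036 to 34321402), ligands shared by several CC receptors, lie on the plus strand and CCL1 (34360328 to 34363231) on the minus strand. CCL5 (35871491 to 35880793, minus strand), CCL3 (36088256 to 36090169, minus strand) and CCL4 (36103590 to 36105621, plus strand) follow farther along the chromosome. On chromosome 4 lie CXCL8 (73740506 to 73743716, plus strand), CXCL1 (73869393 to 73871242, plus strand), CXCL3 (74036589 to 74038807, minus strand) and CXCL10 (76021117 to 76023497, minus strand).

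To show the sequence in front of genes that the IL-4 and construct comparisons turn on, the 250 bases before the start were taken from the RefSeq promoter table (GRCh38.p14), which matched 45 of the 65 members and 21 of the 31 detected ones. CCL1 (chr17:34363234-34363483, minus strand) had the largest difference among members called between constructs, and CCL20 fell with IL-4. The CCL20 window lies inside the gene as GENCODE 29 gives it, which has a further start upstream, and its last 20 bases are annotated as exon there and left out (chr2:227813592-227813821, plus strand, 230 bases shown). The window of CCL8, which rose with IL-4, is exon over all its 250 bases in GENCODE 29 and is not shown. Each sequence reads 5′ to 3′ along the gene, and capitals mark matches to TGGGAA, the core letters bound by the Notch partner RBPJ, read here on the other strand as TTCCCA.
CCL1 promoter: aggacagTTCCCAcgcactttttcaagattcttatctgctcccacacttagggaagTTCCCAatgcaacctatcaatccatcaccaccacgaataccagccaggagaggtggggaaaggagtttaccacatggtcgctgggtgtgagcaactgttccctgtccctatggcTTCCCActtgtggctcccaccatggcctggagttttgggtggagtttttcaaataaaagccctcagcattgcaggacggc
CCL20 promoter: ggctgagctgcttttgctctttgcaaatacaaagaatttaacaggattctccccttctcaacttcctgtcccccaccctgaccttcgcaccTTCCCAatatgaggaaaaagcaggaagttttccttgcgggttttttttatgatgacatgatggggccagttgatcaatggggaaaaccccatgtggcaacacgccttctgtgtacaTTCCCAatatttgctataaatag
CCL1 held 3 matches, at 243, 194 and 80 bases before the start, CCL20 held 2, at 159 and 43 bases, and CCL8 held 0. CCL20 passed between no constructs in either model, and whether RBPJ binds any of these matches was not tested. In all 35116 windows of 250 bases in the table, 20.8% held at least 1 match on either strand, 2.9% at least 2 and 0.305% at least 3. The STAT6 motif, TTC and GAA with 4 bases of any kind between them, reads the same on both strands and was found in 5.38% of the windows. Among the 21 detected members matched, 5 held TGGGAA (CXCR4, CCL20, CX3CR1, CCL24 and CCL1) and 1 held the STAT6 motif (CXCR2). These members had 30 windows in all, so counts of members cannot be set directly against shares of windows.

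Many members differed between experiments in the same way in every group. Experiment 2 was the highest of the 3 experiments in all 6 groups for 14 of the 31 detected members (45.2%) and the lowest in all 6 groups for 9 (29.03%), against 13.7% and 12.1% of the 15037 tested genes. The 14 were mostly inflammatory ligands. CXCL3 was 7.18 times as high in experiment 2 as in the mean of experiments 1 and 3, CCL4L2 5.21 times, CCL7 3.66 times, CCL3L3 3.53 times, CCL2 3.29 times, CCL4 3.20 times and CXCL8 2.32 times. The 9 that were lowest included CXCL10 at a ratio of 0.147, the B cell attractant CXCL13 at 0.159, CXCL11 at 0.251, XCL1 at 0.350, CCR1 at 0.457, CX3CR1 at 0.550, CCR7 at 0.580 and CXCR4 at 0.584. The CXCR3 ratio was 0.965 and that of CCL22 was 1.15. What set experiment 2 apart was not tested.

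**Figure D2:**
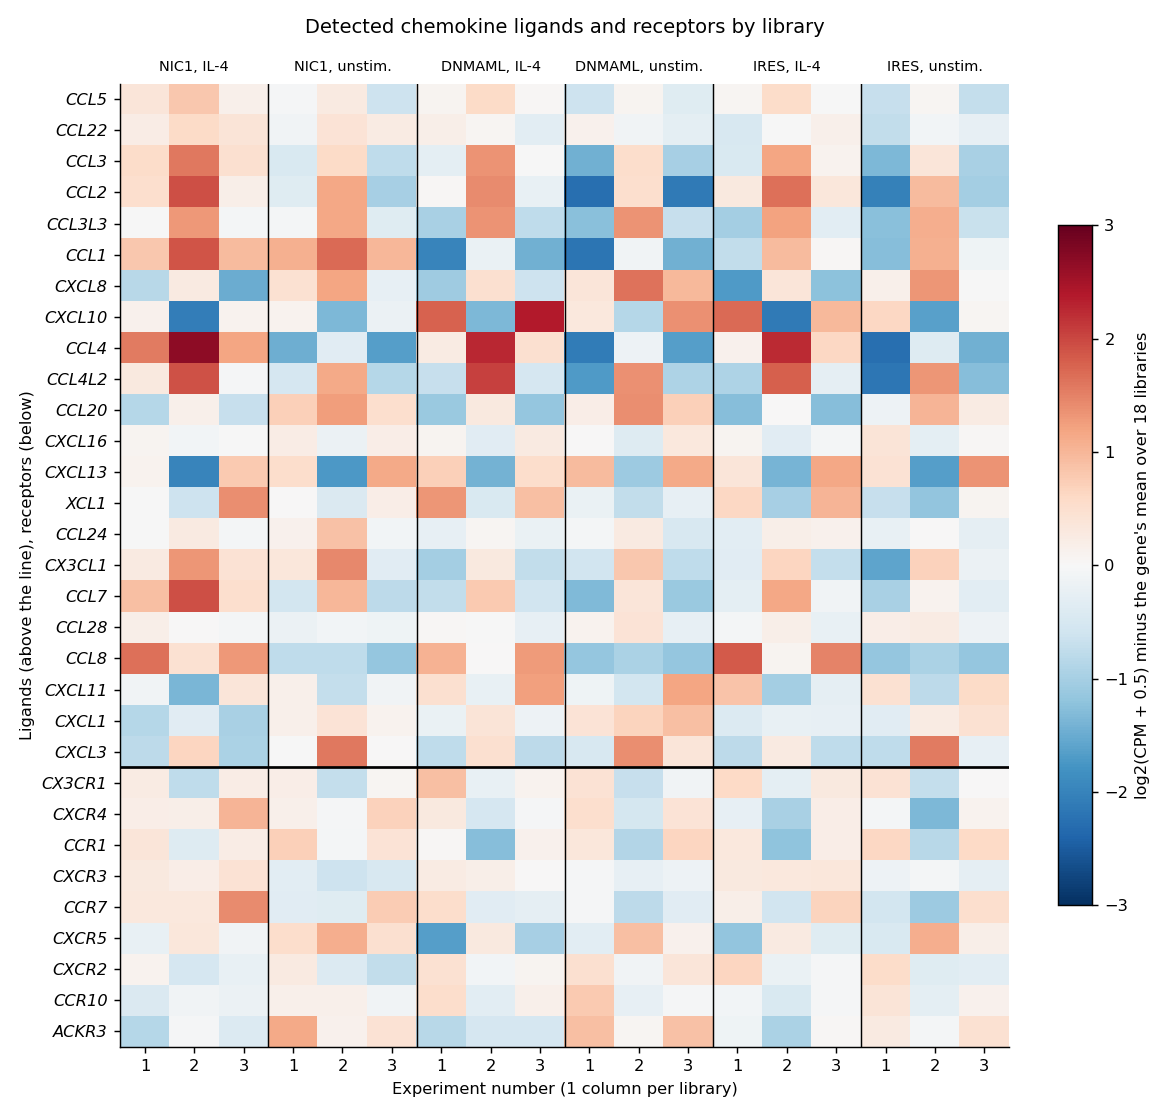
Heat map of the 31 detected members (rows, ligands above the line and receptors below) in 18 libraries (columns, by group and experiment number), coloured by log2(CPM + 0.5) minus the mean of the gene over the 18 libraries. The middle column of each group, experiment 2, is redder for CCL2, CCL3, CCL4L2, CCL1 and CXCL8 and bluer for CXCL10 and CXCL13 than its neighbours, and CCL4 and CCL8 are redder with IL-4 in all 3 constructs.

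The first comparison set cells with IL-4 against unstimulated cells of the same construct, to show what IL-4 does to the family at 3 h. By edgeR's test CCL8 was higher with IL-4 in all 3 constructs, with or without the experiment number as a block. CXCR3 was higher in NIC1 and IRES in both models and did not pass in DNMAML. Only with the block were CCL4, CCL3 and CCL5 called higher and CXCL8, CXCL3, CCL20 and CXCR5 lower in all 3 constructs. The CXCL3 and CXCR5 calls did not all hold when libraries were left out. In the model of group means 3 of 33 members passed the threshold in NIC1 (2 higher, 1 lower, against 3.05% of all genes tested), 2 in DNMAML (1 higher, 1 lower, against 3.28%) and 2 in IRES (both higher, against 2.93%), by edgeR's quasi-likelihood test with Benjamini-Hochberg adjustment over all genes at 0.05. With the experiment number as a block, 12 passed in NIC1 (6 higher, 6 lower, against 8.8% of all genes), 12 in DNMAML (7 higher, 5 lower, against 9.95%) and 10 in IRES (6 higher, 4 lower, against 9.04%). The median log2 change over the 33 members was 0.04 in NIC1, 0.02 in DNMAML and 0.18 in IRES, against -0.01, -0.01 and -0.005 over all tested genes.

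With the block, 15 members passed in at least 1 construct, 4 of them higher in all 3 (CCL3, CCL4, CCL5 and CCL8) and 4 lower in all 3 (CCL20, CXCL3, CXCL8 and CXCR5). Per construct 8.8%, 9.95% and 9.04% of all genes passed in this model in NIC1, DNMAML and IRES. The share of all genes passing in any or in all 3 constructs was not counted, so these counts do not set the family apart. CCL3, CCL4, CCL8 and CCL20 also passed in all 3 constructs when the pair of libraries that stood apart was left out of the blocked model, and when experiment 2 was left out. The block uses the difference within each experiment, and values for genes called with the block are that model's log2 change and standard error. In bulk RNA a smaller share of expressing cells and less RNA per cell cannot be told apart.

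CCL4 (MIP-1β, an attractant of monocytes and T cells) gave the largest blocked log2 change after CCL8. CCL4L2 is a near-identical copy, so the separate level of CCL4 and the size of its change are uncertain. CCL4L2 averaged 20.2 CPM in NIC1 with IL-4 and 11.5 CPM in NIC1 unstimulated, and did not pass in any construct. CCL4 had 15.8, 35.3 and 12.2 CPM in NIC1 with IL-4, against 1.52, 3.90 and 1.28 CPM in NIC1 unstimulated. In DNMAML it had 6.06, 26.1 and 7.32 CPM with IL-4, against 0.799, 4.54 and 1.28 CPM unstimulated. In IRES it had 5.58, 25.9 and 8.10 CPM with IL-4, against 0.653, 3.75 and 1.56 CPM unstimulated. The groups did not overlap in any construct, although experiment 2 was the highest throughout. The blocked log2 change was 3.31 ± 0.221 in NIC1 (edgeR adjusted p = 1.31e-09), 2.56 ± 0.228 in DNMAML (9.70e-08) and 2.70 ± 0.234 in IRES (6.27e-08). Without the block the adjusted p was 0.0651, 0.175 and 0.157, and DESeq2 without it gave 0.00617, 0.0623 and 0.0409.

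CCL3 (MIP-1α, a CCR1 ligand) moved the same way by less. It had 61.9, 126 and 58.9 CPM in NIC1 with IL-4, against 30.3, 62.6 and 24.3 CPM in NIC1 unstimulated, 33.8, 107 and 41.3 CPM in DNMAML with IL-4, against 15.1, 60.5 and 20.8 CPM in DNMAML unstimulated, and 30.5, 95.7 and 44.6 CPM in IRES with IL-4, against 16.0, 54.3 and 21.2 CPM in IRES unstimulated. Every pair of the same construct and experiment was higher with IL-4, while the groups overlapped through experiment 2. The blocked log2 change was 1.10 ± 0.162 in NIC1 (adjusted p = 0.000441), 0.95 ± 0.166 in DNMAML (0.00177) and 0.93 ± 0.169 in IRES (0.00249), and without the block the adjusted p was 0.765, 0.804 and 0.874. The copies CCL3L3 and CCL4L2 did not pass in either model, with blocked log2 changes of 0.16 ± 0.249 and 0.87 ± 0.316 in NIC1, 0.05 ± 0.253 and 0.70 ± 0.315 in DNMAML, and 0.23 ± 0.257 and 0.75 ± 0.325 in IRES.

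CCL5 was high without IL-4 and higher with it. It had 725, 990 and 625 CPM in NIC1 with IL-4, against 551, 681 and 367 CPM in NIC1 unstimulated. In DNMAML it had 596, 835 and 579 CPM with IL-4, against 368, 596 and 437 CPM unstimulated. In IRES it had 586, 823 and 554 CPM with IL-4, against 350, 587 and 345 CPM unstimulated. All 3 experiments moved up in each construct, by a blocked log2 change of 0.56 ± 0.102 in NIC1 (adjusted p = 0.00130), 0.52 ± 0.102 in DNMAML (0.00208) and 0.64 ± 0.102 in IRES (0.000347). Without the block the adjusted p was 0.577, 0.580 and 0.463. Without experiment 2 in the blocked model it was 0.0680 in NIC1, 0.0690 in DNMAML and 0.0225 in IRES.

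CCL2, CCL7 and CCL8 are neighbouring monocyte attractants (MCP-1, MCP-3 and MCP-2). CCL8 was nearly silent without IL-4. It had 3.01, 1.03 and 2.23 CPM in NIC1 with IL-4, against 0.152, 0.159 and 0 CPM in NIC1 unstimulated, 1.77, 0.621 and 2.18 CPM in DNMAML with IL-4, against 0, 0.0732 and 0 CPM in DNMAML unstimulated, and 3.48, 0.676 and 2.63 CPM in IRES with IL-4, against 0, 0.0721 and 0 CPM in IRES unstimulated. Unlike most ligands it was lowest in experiment 2 among the libraries with IL-4. It rose without the block in all 3 constructs, with adjusted p = 0.00934 in NIC1, 0.00731 in DNMAML and 0.00231 in IRES. The IRES call was lost when the compared groups alone were fitted. The sizes rest on few unstimulated counts: 89 against 4 in NIC1 gives a ratio of 20.2 (exact 95% counting interval 7.63 to 75.9), 68 against 1 in DNMAML gives 66.1 (11.5 to 2650) and 98 against 1 in IRES gives 93.9 (16.5 to 3745), intervals that cover counting error only. Without NIC1 unstimulated replicate 3 the adjusted p in NIC1 was 0.0538.

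CCL2 had 53.3, 145 and 42.3 CPM in NIC1 with IL-4, against 29.1, 84.6 and 18.5 CPM in NIC1 unstimulated. In DNMAML it had 38.6, 100 and 32.0 CPM with IL-4, against 7.39, 53.3 and 8.28 CPM unstimulated. In IRES it had 45.7, 120 and 47.9 CPM with IL-4, against 8.86, 73.0 and 18.3 CPM unstimulated. All 9 pairs were higher with IL-4, and in each construct the ratio was larger in experiments 1 and 3 than in experiment 2. The blocked log2 change was 0.92 ± 0.310 in NIC1, which did not pass (adjusted p = 0.114), 1.54 ± 0.336 in DNMAML (0.0133) and 1.32 ± 0.321 in IRES (0.0254). The blocked calls in DNMAML and IRES were lost without the pair that stood apart, at adjusted p = 0.0574 and 0.0765, and without the block it was 0.790 and 0.919. CCL7 rose with the block in NIC1, where it had 2.14, 4.92 and 1.49 CPM with IL-4, against 0.456, 2.31 and 0.320 CPM unstimulated (log2 change 1.57 ± 0.331, adjusted p = 0.00267, against 0.728 without the block).

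XCL1 (lymphotactin) rose with the block in DNMAML, where it had 6.81, 1.63 and 4.94 CPM with IL-4, against 2.07, 1.24 and 1.96 CPM unstimulated. All 3 experiments were higher with IL-4, experiment 2 least, and the log2 change was 1.31 ± 0.361 (adjusted p = 0.0267, against 0.518 without the block). The ligands known from alternative activation were either low or did not pass. CCL13 had 14, 18 and 23 counts in NIC1, DNMAML and IRES with IL-4, against 0 in each unstimulated group, a difference of at least 4.24-fold, 5.83-fold and 7.34-fold with the unstimulated group set at 3 counts in all. It was too low for the filter, and without a filter its edgeR adjusted p was 0.0255, 0.00457 and 0.000957. CCL17 had 7, 5 and 4 counts with IL-4 in the same order, and CCL26 5, 8 and 6 counts, against 0 unstimulated, and neither passed without a filter. CCL22 averaged 84.7 ± 10.5 CPM in NIC1 with IL-4 and 73.3 ± 13.2 CPM in NIC1 unstimulated (n = 3 each), with a log2 change of 0.21 ± 0.201 in NIC1, 0.07 ± 0.202 in DNMAML and 0.25 ± 0.203 in IRES that did not pass. The eotaxin CCL24 had log2 changes of -0.33 ± 0.278, -0.08 ± 0.286 and 0.20 ± 0.287 in the same constructs and did not pass.

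The ligands that fell were the neutrophil attractants CXCL8, CXCL1 and CXCL3 and the CCR6 ligand CCL20. CXCL8 (IL-8) had 7.96, 17.5 and 4.84 CPM in NIC1 with IL-4, against 20.2, 33.4 and 12.2 CPM in NIC1 unstimulated. In DNMAML it had 6.61, 20.3 and 9.18 CPM with IL-4, against 18.7, 46.1 and 28.9 CPM unstimulated. In IRES it had 4.14, 18.9 and 5.91 CPM with IL-4, against 16.0, 36.8 and 14.4 CPM unstimulated. Each pair was lower with IL-4, and experiment 2 was the highest in each group. The blocked log2 change was -1.17 ± 0.271 in NIC1 (adjusted p = 0.0156), -1.43 ± 0.254 in DNMAML (0.00238) and -1.29 ± 0.272 in IRES (0.00830), against adjusted p of 0.726, 0.470 and 0.636 without the block. Without experiment 2 the blocked call in NIC1 was lost (0.0871).

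CCL20 had 5.28, 11.2 and 6.03 CPM in NIC1 with IL-4, against 16.6, 24.5 and 14.4 CPM in NIC1 unstimulated. In DNMAML it had 4.36, 12.4 and 4.17 CPM with IL-4, against 11.6, 27.2 and 16.8 CPM unstimulated, and in IRES 3.81, 10.1 and 3.79 CPM with IL-4, against 8.86, 20.6 and 12.004 CPM unstimulated. The groups did not overlap in NIC1 and overlapped through experiment 2 in the other constructs. The blocked log2 change was -1.34 ± 0.165 in NIC1 (adjusted p = 6.59e-06), -1.46 ± 0.165 in DNMAML (2.26e-06) and -1.26 ± 0.175 in IRES (3.51e-05), and without the block the adjusted p was 0.332, 0.238 and 0.392.

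CXCL1 had 0.201, 0.514 and 0.149 CPM in NIC1 with IL-4, against 0.913, 1.19 and 0.880 CPM in NIC1 unstimulated, and it fell in NIC1 without the block (log2 change -1.77 ± 0.457, adjusted p = 0.0474, lower in 3 of 3 experiments). That call rests on 12 against 38 counts and passed in 1 of 6 fits with a library left out, without NIC1 with IL-4 replicate 2 (0.0174), and reached 0.220 in the others, with 0.0582 without the pair that stood apart. In DNMAML and IRES CXCL1 did not pass in either model, with blocked log2 changes of -0.95 ± 0.306 and -0.72 ± 0.369. CXCL3 was lower still, with 0.0669, 1.03 and 0 CPM in NIC1 with IL-4, against 0.456, 2.39 and 0.480 CPM in NIC1 unstimulated, and most of its counts came from experiment 2. It fell with the block in NIC1 (-1.66 ± 0.480, adjusted p = 0.0312), DNMAML (-1.67 ± 0.496, 0.0340) and IRES (-1.69 ± 0.522, 0.0452), and passed in none of them without experiment 2 (0.0746, 0.102 and 0.676). Without the pair that stood apart the adjusted p was 0.0446, 0.135 and 0.0717. In the model of group means the IRES change turned to 0.46 without IRES unstimulated replicate 2.

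**Figure D3:**
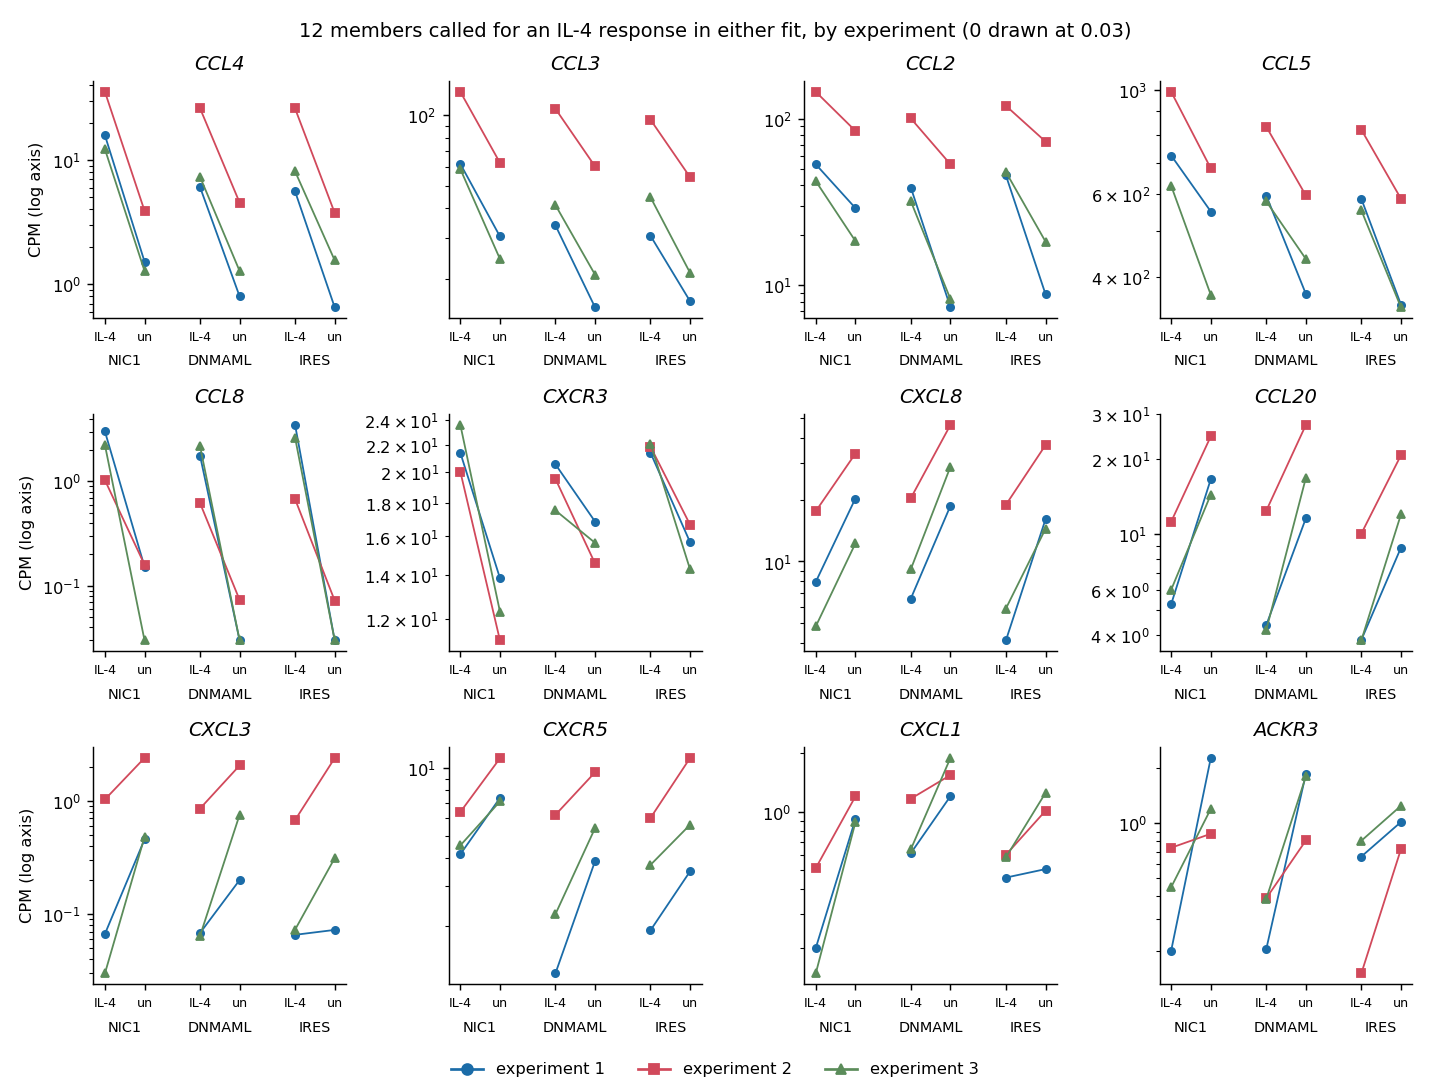
CPM on a log axis of 12 members called for an IL-4 response with or without the block, with IL-4 left and unstimulated (un) right within NIC1, DNMAML and IRES, and a line for each experiment. CCL4, CCL3, CCL2, CCL5, CCL8 and CXCR3 slope down from IL-4 to unstimulated in every line and the other 6 slope up, while experiment 2 (red) lies apart for most ligands.

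Among the receptors CXCR3, which binds CXCL9, CXCL10 and CXCL11, was the one that rose without the block. It had 21.4, 20.0 and 23.6 CPM in NIC1 with IL-4, against 13.8, 11.1 and 12.3 CPM in NIC1 unstimulated. In DNMAML it had 20.6, 19.6 and 17.5 CPM with IL-4, against 16.9, 14.6 and 15.6 CPM unstimulated. In IRES it had 21.4, 21.9 and 22.1 CPM with IL-4, against 15.7, 16.7 and 14.3 CPM unstimulated. The groups did not overlap in any construct, and experiment 2 was not set apart. The log2 change was 0.80 ± 0.103 in NIC1 (adjusted p = 0.000154), 0.29 ± 0.102 in DNMAML (0.195, not passed) and 0.49 ± 0.102 in IRES (0.0116). The NIC1 call held in 6 of 6 fits with a library left out, and the IRES call was lost without IRES unstimulated replicate 3 (0.0759) and without the pair that stood apart (0.0739). Fitting the compared groups alone also lost the IRES call.

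CXCR5, the CXCL13 receptor, fell with the block in all 3 constructs, with the limit that BCL9L overlaps it. It had 4.15, 6.39 and 4.54 CPM in NIC1 with IL-4, against 7.38, 11.1 and 7.12 CPM in NIC1 unstimulated (blocked log2 change -0.77 ± 0.218, adjusted p = 0.0303). The change was -1.02 ± 0.241 in DNMAML (0.00697) and -0.79 ± 0.233 in IRES (0.0378), with adjusted p of 0.851, 0.647 and 0.823 without the block. Without the pair that stood apart the blocked adjusted p was 0.0518, 0.0792 and 0.115, and without experiment 2 it was 0.0773, 0.00422 and 0.160.

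ACKR3 (CXCR7), which scavenges CXCL11 and CXCL12, fell in DNMAML without the block. It had 0.204, 0.388 and 0.385 CPM in DNMAML with IL-4, against 1.87, 0.805 and 1.81 CPM in DNMAML unstimulated (log2 change -2.17 ± 0.561, adjusted p = 0.0444, 14 against 63 counts). The groups did not overlap, but the call passed in 1 of 6 fits with a library left out, without DNMAML unstimulated replicate 2 (0.0255), and reached 0.192 in the others, with 0.157 without the pair that stood apart. In NIC1 it had 0.201, 0.734 and 0.447 CPM with IL-4, against 2.28, 0.876 and 1.20 CPM unstimulated, and fell with the block (-1.65 ± 0.460, 0.0250, against 0.153 without). In IRES the blocked log2 change was -0.88 ± 0.472 and did not pass (0.343). CX3CR1 rose with the block in DNMAML, where it had 187, 85.7 and 108 CPM with IL-4, against 135, 62.1 and 93.3 CPM unstimulated (0.39 ± 0.107, 0.0283, against 0.947 without). Without experiment 2 that adjusted p was 0.253. CCR7 was higher with IL-4 in all 9 pairs and did not pass, with blocked log2 changes of 0.68 ± 0.335, 0.40 ± 0.365 and 0.46 ± 0.359, and CCR1 was lower in all 9 pairs and did not pass, with -0.30 ± 0.179, -0.41 ± 0.184 and -0.36 ± 0.182 in NIC1, DNMAML and IRES.

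**Figure D4:**
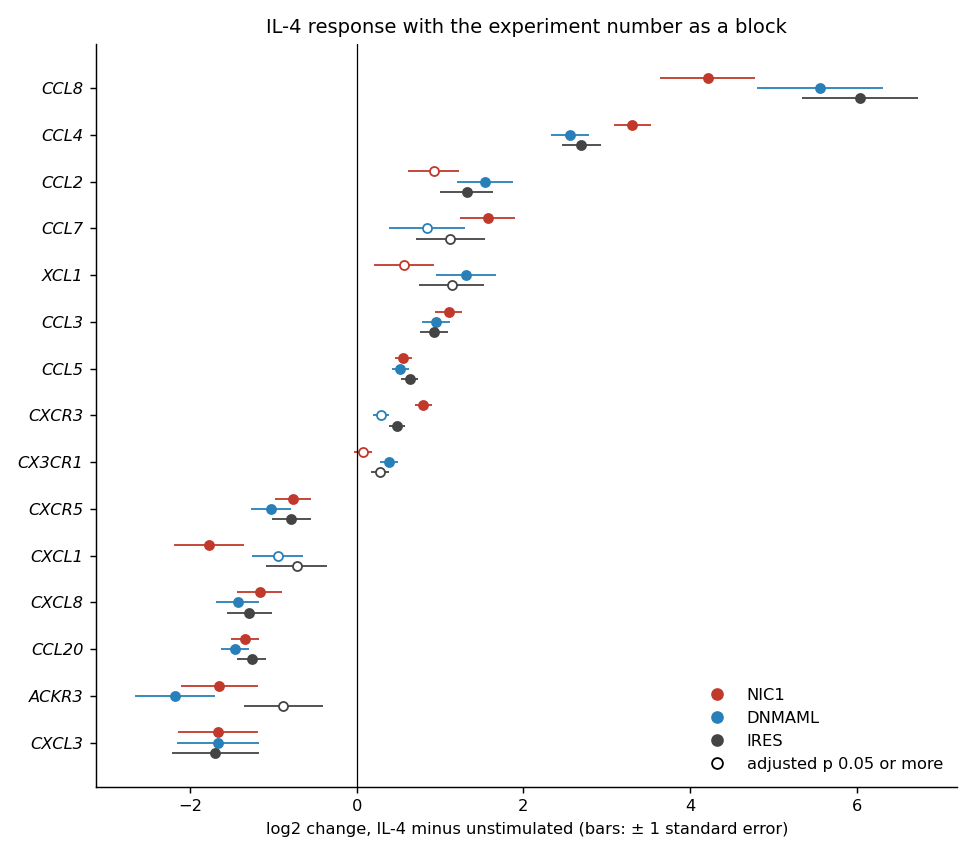
Log2 change of IL-4 over unstimulated cells in the model blocked on experiment, with bars of 1 standard error, for the 15 members called in at least 1 construct (filled points passed, open points did not). NIC1, DNMAML and IRES run from top to bottom within a gene, and CCL8 at 4.21 to 6.04 and CCL4 at 2.56 to 3.31 stand farthest to the right.

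Whether the constructs changed the IL-4 response was tested directly, as a difference of differences. By edgeR's test 0 members passed for NIC1 minus IRES, DNMAML minus IRES and NIC1 minus DNMAML, with or without the block, as did 0% of all genes in each. At an unadjusted p under 0.05 there were 1, 0 and 1 members (with the block 1, 0 and 2), against 121, 98 and 214 of 15037 genes (with the block 366, 237 and 610), and DESeq2 called 0. The members were CXCR3 in NIC1 minus IRES (0.31 ± 0.145) and in NIC1 minus DNMAML (0.51 ± 0.145), and with the block also CCL4 in NIC1 minus DNMAML (0.75 ± 0.348). The calls that appear in some constructs only, such as CCL7, XCL1 or ACKR3, are not shown to differ between constructs.

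The second comparison set NIC1 against DNMAML, that is, active NOTCH1 against blocked Notch transcription. CCL1 showed the largest difference among the members called. In the model of group means 0 members passed in unstimulated cells (against 1.65% of all genes) and 0 with IL-4 (against 1.44%), with 2 members in each at an unadjusted p under 0.05 (against 13.5% and 11.8% of all genes) and 1 in each called by DESeq2, CCL1. With the block 3 passed in unstimulated cells (1 higher, 2 lower in NIC1, against 13.8% of all genes) and 9 with IL-4 (5 higher, 4 lower, against 12.6%). The median log2 difference of the 33 members was 0.09 in unstimulated cells and 0.22 with IL-4, against -0.001 and -0.003 over all tested genes. Libraries of a construct with and without IL-4 are treated as independent in the blocked model, and if they came from 1 culture its p-values for constructs are too small. The summed level of the 10 monocyte and macrophage markers was 783 to 964 CPM in NIC1 with IL-4, against 1002 to 1165 CPM in DNMAML with IL-4, and 734 to 919 CPM in NIC1 unstimulated, against 964 to 1126 CPM in DNMAML unstimulated. T cell markers summed to 92.4 to 106 CPM in NIC1 with IL-4, against 74.7 to 92.3 CPM in DNMAML with IL-4, and to 98.4 to 115 CPM in NIC1 unstimulated, against 86.6 to 93.1 CPM in DNMAML unstimulated. Neutrophil markers summed to 15.6 to 20.8 CPM in NIC1 unstimulated, against 24.0 to 49.2 CPM in DNMAML unstimulated, and B cell markers to 13.2 to 17.5 CPM in NIC1 with IL-4, against 8.72 to 13.1 CPM in DNMAML with IL-4. With IL-4 the neutrophil markers overlapped, at 16.4 to 23.4 CPM in NIC1 and 20.6 to 47.8 CPM in DNMAML. In unstimulated cells the B cell markers overlapped, at 14.8 to 20.6 CPM in NIC1 and 9.86 to 17.2 CPM in DNMAML. Dendritic cell, megakaryocyte, and fibroblast and epithelial markers overlapped in both conditions. The part of the marker sets in the differences below was not tested.

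CCL1 had 51.6, 110 and 57.1 CPM in NIC1 with IL-4, against 7.08, 25.7 and 10.5 CPM in DNMAML with IL-4. In unstimulated cells it had 62.0, 96.4 and 58.9 CPM in NIC1, against 5.995, 27.4 and 10.5 CPM in DNMAML. IRES lay between them, at 17.5, 57.6 and 30.3 CPM with IL-4 and 11.9, 62.3 and 26.9 CPM unstimulated. The order NIC1, IRES, DNMAML from high to low held in 6 of 6 sets of the same experiment and condition. Of the 31 detected members this was true of CCL1 alone, with CCL2 and CCR1 next at 5 sets each. Sets of the same experiment may not be independent. The order comes from the same values as the CCL1 difference, and the share of all tested genes in this order was not counted. The difference of NIC1 from DNMAML was 2.43 ± 0.287 with IL-4 (blocked edgeR adjusted p = 0.000203) and 2.48 ± 0.289 unstimulated (0.000193), and it passed without experiment 2 (0.00146 and 0.00107) and without the pair that stood apart (0.00353 and 0.000823). Without the block it was 2.35 ± 0.696 (0.144) and 2.31 ± 0.696 (0.132). IL-4 itself left CCL1 with blocked log2 changes of -0.06 ± 0.246 in NIC1 and 0.12 ± 0.273 in IRES, which did not pass.

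**Figure D5:**
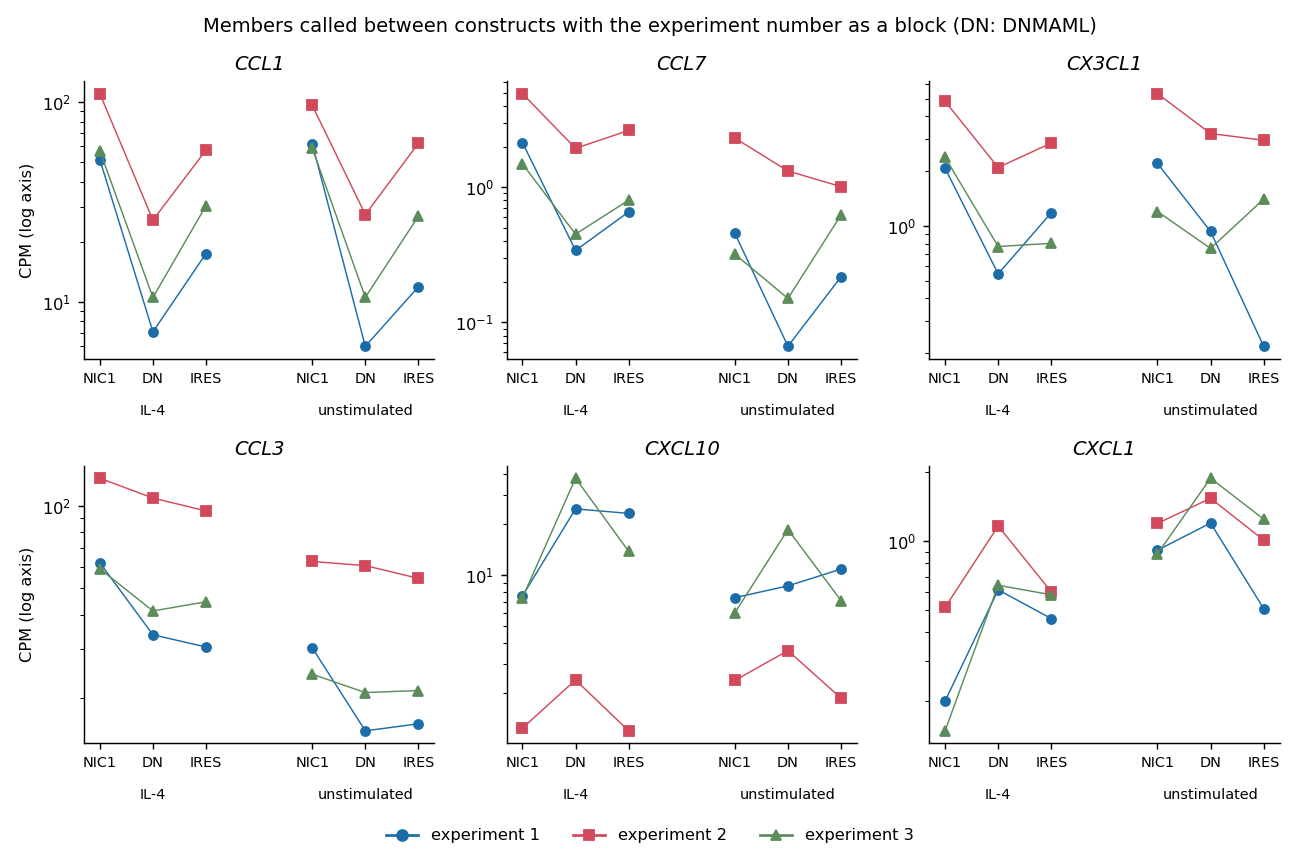
CPM on a log axis of 6 members called between constructs in the blocked model, with NIC1, DNMAML (DN) and IRES from left to right for IL-4 and then unstimulated cells, and a line for each experiment. CCL1 drops from NIC1 to DNMAML and comes back part of the way in IRES in all 6 lines, whereas CXCL10 and CXCL1 are lower in NIC1 than in DNMAML in all 6.

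The fractalkine gene CX3CL1, which encodes a membrane-bound ligand, and CCL7 were higher in NIC1 than in DNMAML in all 6 sets. With IL-4 CX3CL1 had 2.07, 4.85 and 2.38 CPM in NIC1, against 0.545, 2.09 and 0.770 CPM in DNMAML (blocked log2 difference 1.49 ± 0.333, adjusted p = 0.00401, against 0.525 without the block and 0.0546 without experiment 2). CCL7 had 2.14, 4.92 and 1.49 CPM in NIC1 with IL-4, against 0.341, 1.94 and 0.449 CPM in DNMAML with IL-4 (1.74 ± 0.332, 0.00102, against 0.492 without the block). Both genes were highest in experiment 2 and the groups overlapped. CCL4 (0.82 ± 0.166, 0.00212) and CCL3 (0.53 ± 0.155, 0.0392) also passed with IL-4 in the blocked model, with adjusted p of 0.821 and 0.887 without the block, and CCL3 was lost without the pair that stood apart (0.138) and turned to -0.0028 in the model of group means without NIC1 with IL-4 replicate 2.

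Lower in NIC1 with the block were the interferon-induced CXCL10, the neutrophil attractant CXCL1 and 4 receptors. CXCL10 had 7.56, 1.25 and 7.37 CPM in NIC1 with IL-4, against 24.7, 2.41 and 37.5 CPM in DNMAML with IL-4, where it was high in experiments 1 and 3 and low in experiment 2 (blocked log2 difference -1.92 ± 0.452, adjusted p = 0.0167, against 0.490 without the block and 0.0996 without the pair that stood apart). CXCL1 had 0.201, 0.514 and 0.149 CPM in NIC1 with IL-4, against 0.613, 1.16 and 0.642 CPM in DNMAML with IL-4 (-1.44 ± 0.433, 0.0311, against 0.180 without the block). CXCR2, the receptor of CXCL1 and CXCL8, was lower in NIC1 in all 6 sets and passed in unstimulated cells, with 5.70, 3.34 and 2.56 CPM in NIC1, against 6.59, 4.25 and 6.09 CPM in DNMAML (-0.56 ± 0.178, 0.0401, against 0.555 without the block and 0.0514 without the pair that stood apart). CXCR3 passed in unstimulated cells, with 13.8, 11.1 and 12.3 CPM in NIC1, against 16.9, 14.6 and 15.6 CPM in DNMAML (-0.34 ± 0.103, 0.0329, against 0.136 without the block). With IL-4 the CXCR3 difference went the other way and did not pass. CXCR3 then had 21.4, 20.0 and 23.6 CPM in NIC1, against 20.6, 19.6 and 17.5 CPM in DNMAML.

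CCR2, the CCL2 receptor, had 5, 0 and 4 counts in NIC1 with IL-4, against 26, 0 and 13 counts in DNMAML with IL-4 (-2.02 ± 0.578, adjusted p = 0.0236, against 0.652 without the block and 0.107 without the pair that stood apart), so it had 0 counts in experiment 2 in both. CX3CR1 had 120, 59.1 and 117 CPM in NIC1 with IL-4, against 187, 85.7 and 108 CPM in DNMAML with IL-4 (-0.35 ± 0.107, 0.0396, against 0.832 without the block). In CX3CR1 experiment 3 went the other way, and the direction turned, to 0.026, without DNMAML with IL-4 replicate 1 in the model of group means. Neither CXCR2 (0.0899) nor CXCR3 (0.113) passed without experiment 2, nor did CXCL1 (0.0965) or CX3CR1 (0.317).

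NIC1 was also set against IRES, the vector control. In the model of group means 0 members passed in unstimulated cells (against 0.233% of all genes) and 0 with IL-4 (against 0.2%), with 3 and 1 members at an unadjusted p under 0.05 (against 7.12% and 5.95% of all genes) and 0 called by DESeq2. With the block 1 passed in unstimulated cells (against 5.37% of all genes) and 4 with IL-4 (against 5.44%), all higher in NIC1. T cell markers summed to 92.4 to 106 CPM in NIC1 with IL-4, against 76.1 to 90.2 CPM in IRES with IL-4, and to 98.4 to 115 CPM in NIC1 unstimulated, against 85.4 to 97.0 CPM in IRES unstimulated, and their part was not tested. The summed ranges of the other marker sets overlapped between NIC1 and IRES in both conditions. CCL1 was higher by 1.30 ± 0.263 unstimulated (adjusted p = 0.0158, against 0.816 without the block) and by 1.12 ± 0.259 with IL-4 (0.0298, against 1 without the block), and the 2 calls were lost without the pair that stood apart (0.0627 and 0.0565), the second also without experiment 2 (0.0564). With IL-4 CCL7 (1.13 ± 0.308, 0.0334), CCL4 (0.81 ± 0.167, 0.00531) and CCL3 (0.60 ± 0.156, 0.0430) passed too, each higher in 3 of 3 experiments and each with adjusted p = 1 without the block. CCL7 had 2.14, 4.92 and 1.49 CPM in NIC1 with IL-4, against 0.657, 2.63 and 0.802 CPM in IRES with IL-4, so the groups overlapped. Without experiment 2 CCL4 passed (0.0182), and CCL7 (0.114) and CCL3 (0.0575) did not, and CCL3 did not pass without the pair that stood apart either (0.0796).

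DNMAML against IRES gave 0 members in either model in unstimulated cells and with IL-4, where 0% of all genes passed without the block and 0.146% and 0.0931% with it. No member had an unadjusted p under 0.05 without the block (against 2.47% and 2.37% of all genes), 5 and 1 did with it (against 8.19% and 7.75%), and DESeq2 called 0. The member nearest to a call was CCL1, lower in DNMAML in 3 of 3 experiments in each condition, by 1.18 ± 0.302 unstimulated and 1.31 ± 0.299 with IL-4 on the log2 scale (blocked adjusted p = 0.199 and 0.190). CCL22, CCL5 and CXCR4 did not pass between any constructs. In NIC1 against IRES with IL-4 they differed by 0.50 ± 0.201, 0.25 ± 0.101 and 0.83 ± 0.227 (blocked adjusted p = 0.234, 0.213 and 0.0590).

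Genes that act around the family were taken from 3 lists. Of 38 genes of receptor signalling 36 were tested, and IL-4 raised 3 in NIC1, 2 in DNMAML and 3 in IRES and lowered 0 without the block (with it 8, 6 and 6 higher and 1 lower in each). Over all genes tested 3.05%, 3.28% and 2.93% passed in these constructs without the block and 8.8%, 9.95% and 9.04% with it. PIK3R5, the regulatory subunit of the Gβγ-driven PI3 kinase, averaged 137 ± 5.76 CPM in NIC1 with IL-4 and 55.6 ± 3.45 CPM in NIC1 unstimulated (log2 change 1.30 ± 0.136, adjusted p = 1.52e-05), with 1.29 ± 0.136 in DNMAML and 1.35 ± 0.136 in IRES. PIK3CD, a leukocyte PI3 kinase, changed by 1.15 ± 0.210 in NIC1 (0.00467), 0.98 ± 0.210 in DNMAML (0.0146) and 1.04 ± 0.209 in IRES (0.0102). ARRB2, an arrestin that ends receptor signalling, rose in NIC1 (0.40 ± 0.0674, 0.00221) and IRES (0.27 ± 0.0677, 0.0452). Between NIC1 and DNMAML, PLCB2 was lower in unstimulated NIC1 (-0.43 ± 0.0861, 0.0191) and ARRB2 higher in NIC1 with IL-4 (0.46 ± 0.0673, 0.00210). No other listed gene passed there without the block (against 1.65% and 1.44% of all genes). With it 6 were higher and 4 lower in unstimulated NIC1, and 10 higher and 4 lower with IL-4 (against 13.8% and 12.6%). Between NIC1 and IRES 0 passed without the block (against 0.233% and 0.2%). With it 4 were higher and 2 lower unstimulated, and 6 higher and 1 lower with IL-4 (against 5.37% and 5.44%). The list's median log2 change with IL-4 was -0.02 in NIC1, -0.03 in DNMAML and -0.002 in IRES.

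Of 22 other chemoattractants and their receptors 15 were tested, and in each construct IL-4 raised 1 and lowered 1 without the block (with it 2, 2 and 1 higher and 3, 4 and 3 lower in NIC1, DNMAML and IRES), against 3.05%, 3.28% and 2.93% of all genes without it and 8.8%, 9.95% and 9.04% with it. The oxysterol receptor GPR183 averaged 235 ± 12.3 CPM in NIC1 with IL-4 and 132 ± 10.0 CPM in NIC1 unstimulated (0.83 ± 0.118, adjusted p = 0.000405), with 0.74 ± 0.118 in DNMAML (0.00111) and 0.72 ± 0.118 in IRES (0.00149). The C5a receptor C5AR1 fell to 7.96 ± 1.02 CPM in NIC1 with IL-4, against 16.6 ± 4.13 CPM in NIC1 unstimulated (-1.06 ± 0.241, 0.0206), with -1.02 ± 0.245 in DNMAML (0.0296) and -1.16 ± 0.245 in IRES (0.0122). CMKLR1, the chemerin receptor, was higher in NIC1 than in the other constructs. It averaged 3.14 ± 0.325 CPM in NIC1 unstimulated, 0.597 ± 0.185 CPM in DNMAML unstimulated and 0.885 ± 0.296 CPM in IRES unstimulated, a log2 difference of 2.38 ± 0.367 from DNMAML (0.00315) and 1.81 ± 0.348 from IRES (0.0440). With IL-4 the differences were 3.43 ± 0.470 (0.00118) and 2.08 ± 0.399 (0.0479).

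Of 14 genes of chemokine cleavage and presentation 13 were tested, and IL-4 raised 2 in each construct without the block, the heparan sulphate proteoglycans SDC2 and SDC4, which can hold chemokines at the cell surface (against 3.05%, 3.28% and 2.93% of all genes). With the block 2 were higher in each construct and 1, 2 and 2 lower in NIC1, DNMAML and IRES (against 8.8%, 9.95% and 9.04%). SDC2 averaged 249 ± 28.2 CPM in NIC1 with IL-4 and 162 ± 21.5 CPM in NIC1 unstimulated (0.62 ± 0.139, adjusted p = 0.0176), with 1.00 ± 0.141 in DNMAML (0.000368) and 0.84 ± 0.140 in IRES (0.00179). SDC4 changed by 0.49 ± 0.121 in NIC1 (0.0375), 0.55 ± 0.119 in DNMAML (0.0148) and 0.52 ± 0.120 in IRES (0.0248). In unstimulated cells SDC2 was higher (1.04 ± 0.141, 0.00127) and SDC4 lower (-0.57 ± 0.121, 0.0277) in NIC1 than in DNMAML, and with IL-4 the differences were 0.66 ± 0.139 (0.0244) and -0.63 ± 0.120 (0.0129). DPP4, the peptidase that trims CXCL10 and CXCL12, was higher in NIC1 with IL-4 than in DNMAML with IL-4, at 0.955 ± 0.0862 CPM and 0.272 ± 0.102 CPM (1.75 ± 0.410, 0.0442).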

How the data were processed

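RNA was sequenced from 18 libraries in 6 groups of 3. The authors deposited raw counts per gene, as whole numbers, for each library. FastQC, Trimmomatic, HISAT2, HTSeq, DESeq2 and genome build GRCh38.p12 are named per the submitters' processing notes. Versions, annotation and strand setting are not given in the sources consulted. Entries that name no gene (23.8% to 30.9% of the reads in a library) were left out of library sizes and tests. No pair of libraries of a group agreed within counting noise (chi-square per degree of freedom 5.68 to 50.6).

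Symbols came from the name table for 56948 of 58051 identifiers, coordinates and exon lengths from GENCODE release 29. The identifier given as CCL3L3 is CCL3L1 in that release. Genes were kept by filterByExpr (15037), scaled by TMM and tested with edgeR 4.0.16 (quasi-likelihood F test, 6 group means, all 18 libraries, R 4.3.3), with Benjamini-Hochberg adjustment over all genes tested in each of 12 contrasts at 0.05. CPM use the same scaling, and SDs are over 3 libraries. Log2 changes carry a standard error from the F statistic.

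The experiment numbers pair the libraries: deviations from the group means correlated in all 45 pairs of the same number (Pearson r across genes 0.206 to 0.759, median 0.466). The median of -0.395 in 90 other pairs is tied to this and is no separate evidence, since deviations within a group cancel out. A model with the number as a block was therefore fitted beside the main one. For members it is printed where it changed a call or moved a count of members called by over 1.5 times. For the lists, blocked counts are given for IL-4 and, in receptor signalling, for NIC1 against the other constructs. The alternatives were DESeq2 1.42.0, RLE scaling, no filter, fitting the compared groups alone, leaving out each library, and, added with results known, leaving out experiment 2 or the pair of libraries that stood apart.

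Every member detected in a group is named with its levels, members called in either model with the values of the contrast, and listed genes by adjusted p, up to 6 per list and contrast. Promoter motifs were sought in the 250 bases before the start, without the bases after it that the table also holds, and bases annotated as exon in GENCODE 29 are not shown. The members and lists were chosen with earlier results of these data known. The values of 1 member are not reported here. The scripts were tested on simulated data.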

Additional observations from a re-analysis of the deposited data

How the results depend on the processing

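Of 51 changes of single members called in the models with or without the block, 7 passed in the model of group means. All 7 passed in the blocked model, with DESeq2, with RLE scaling and without a filter, 3 when the compared groups alone were fitted and 4 without the pair that stood apart. The replicate block raised the number of members called to 12 for IL-4 in NIC1 (against 3), 12 in DNMAML (against 2), 10 in IRES (against 2), 1 and 4 for NIC1 against IRES without and with IL-4, and 3 and 9 for NIC1 against DNMAML (against 0 in each). In the same order the blocked model gave 11, 10, 7, 1, 3, 2 and 6 without the pair that stood apart and 8, 9, 8, 1, 1, 2 and 7 without experiment 2. These counts include members not called with all libraries. Of the calls made with all libraries, 11, 9, 7, 0, 2, 2 and 6 held without the pair. Without experiment 2, 8, 9, 8, 1, 1, 1 and 6 held. Of the 51, 37 and 34 still passed. These fits with libraries left out by pair or experiment were chosen after seeing the data. For the alternative fits in this paragraph the shares over all genes are not given. Without a filter 5 members were called for IL-4 in NIC1. Fitting the compared groups alone called 1 in DNMAML and 0 in IRES, and leaving out that pair called 1 in each. DESeq2 called 1 member for NIC1 against DNMAML in each condition. With a library left out the counts were 1 to 3 in NIC1, 1 to 2 in DNMAML and 1 to 2 in IRES, and 0 in the other comparisons. Over the fits with a library left out, CXCL3 in the IL-4 response of IRES ranged from -3.58 to 0.46 (log2), positive without IRES unstimulated replicate 2. For NIC1 against DNMAML with IL-4, CX3CR1 ranged from -0.59 to 0.026, positive when DNMAML replicate 1 was left out, and CCL3 from -0.0028 to 1.12, negative when NIC1 replicate 2 was left out. The cause was not tested. The number of members detected was 36 at 0.5 CPM, 27 at 2 CPM and 31 on unscaled library totals. Counts of a few reads limit what can be said of CCL8, CCL13, CXCL1, CXCL3, CCR2 and ACKR3.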
